A study of Homo sapiens with 8 samples.

Results

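The genes described here are 43 named genes of NF-kB signalling and inflammation: transcription factors, their inhibitors, chemokines and cytokines, receptors, adaptors and kinases, inflammasome genes and genes induced by the pathway. They were chosen by name, and their Entrez numbers were matched to symbols among the 22653 entries that the deposited files list. Of the 43 genes 40 were listed in at least 1 file.

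RNA with poly(A) tails was measured in U937, an established human monocytic cell line. All groups carried a knockout of SLC19A1, a folate carrier. Each of the 2 lines also carried a Flag-tagged transporter under a doxycycline-inducible (tet) promoter, SLC7A2 in one and SLC7A1 in the other. Both are cationic amino acid transporters. The 4 groups were the SLC7A2 line given 1 µg/mL doxycycline (dox) for 24 h (dox-treated SLC7A2 cells), the SLC7A2 line without dox (untreated SLC7A2 cells), the SLC7A1 line given the same dox (dox-treated SLC7A1 cells), and the SLC7A1 line without dox (untreated SLC7A1 cells). Every group held 2 libraries, numbered 1 and 2 in the labels, and no group was given an inflammatory stimulus. No line without a construct received dox, so an effect of the drug and one of the transporter cannot be told apart. The lines differ in their construct and may differ in their history, and these too cannot be told apart. The labels do not say whether replicates were separate cultures, so p-values measure only the spread between these libraries, which may be technical.

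NF-kB is a family of dimeric transcription factors that resting cells hold in the cytoplasm, bound to IkB inhibitors. Signals from Toll-like, interleukin 1 and TNF receptors lead to the degradation of IkB, and the freed dimers enter the nucleus and induce cytokines, chemokines, adhesion molecules and their own inhibitors. Monocytic cells are a main source of these products when stimulated, and an unstimulated line shows the level of the genes without an added stimulus. Activity of the pathway itself was not measured.

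The dimers bind DNA at the kappa B motif, and 30-base windows around its matches are printed for 7 members because they show which of the genes hold the motif next to their start. The motif of 10 letters was searched on both strands in the 250 bases before each annotated start, and overlapping matches were counted once. Of the 35 members with an entry in the RefSeq promoter table (GRCh38.p14) 10 held a match: BIRC3, CD83, CXCL2, NFKB1, NFKB2, NFKBIA, NFKBIB, REL, TNFAIP3 and TNIP1. Over all 27305 genes of the table the share with a match was 6.28%. Each sequence below runs 5′ to 3′ on the strand of its gene, with the match in capitals. For NFKB2, TNFAIP3 and BIRC3, which held further matches, only the window with the lowest coordinates is printed. The lower-case right end of the TNFAIP3 window is the start of another match, which is cut off. A match is a description of letters and not a measured binding site.
CD83, chr6:14117686-14117715, plus strand: gctgcccgccGGGGAATCCCccgggctggc
NFKB1, chr4:102501300-102501329, plus strand: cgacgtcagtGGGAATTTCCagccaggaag
NFKB2, chr10:102394461-102394490, plus strand: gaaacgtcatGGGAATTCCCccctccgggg
NFKBIA, chr14:35404811-35404840, minus strand: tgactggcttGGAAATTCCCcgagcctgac
TNFAIP3, chr6:137867182-137867211, plus strand: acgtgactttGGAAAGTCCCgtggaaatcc
CXCL2, chr4:74099254-74099283, minus strand: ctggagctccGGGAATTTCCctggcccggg
BIRC3, chr11:102317275-102317304, plus strand: tttgggtcatGGAAATCCCCgagtgggttt
In NFKBIA, TNFAIP3 and BIRC3 the motif reads in the opposite direction to the gene. The 10 members with a match ranged from low to clearly expressed, as given below, with CXCL2 and BIRC3 under 1 TPM on average.

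Libraries held 17309132 to 18441833 expected counts, and a floor of 3 counts equalled 0.163 to 0.173 CPM (counts scaled to the library total). Floors cover counting error only. Of 13 monocytic and myeloid markers 12 lay above the floor, and CD14 did not, with at most 3 counts. Summed markers of T cells reached at most 0.225 CPM, and 3 erythroid markers were at 0 in all 8 libraries. The 3 NK cell markers summed to 247 to 319 CPM, with KLRD1 at or under the floor, and the 4 B cell markers to 18.8 to 26.3 CPM, with MS4A1 at or under it. On the first principal component, with 27.4% of the variance, both SLC7A2-line libraries numbered 2 stood apart. They lay at 68.1 with dox and 55.3 without dox, against -52.7 to -3.7 for the other 6. On the second component both lines split by number. SLC7A1-line libraries numbered 1 had 46 with dox and 29.1 without, against -31.4 and -42.2 for number 2. SLC7A2-line libraries numbered 1 had -14 with dox and -22.8 without, against 16.9 and 18.5 for number 2.

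Most of the 43 genes were expressed without any stimulus. A gene was called silent where no library had more than 3 expected counts, low where it passed that floor but averaged under 1 TPM (transcript level scaled to gene length and library), and expressed otherwise. By these terms 36 were expressed, 4 low and 3 silent. The median of the 36 was 15.4 TPM, beside 13.6 TPM for the 10100 Entrez genes that averaged at least 1 TPM. The order of levels spanned from PYCARD at 228 ± 20.1 TPM to PTGS2 at 0.0288 ± 0.0352 TPM (SD over 8 libraries), with 25 genes over 10 TPM and 3 over 100 TPM.

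**Figure D1:**
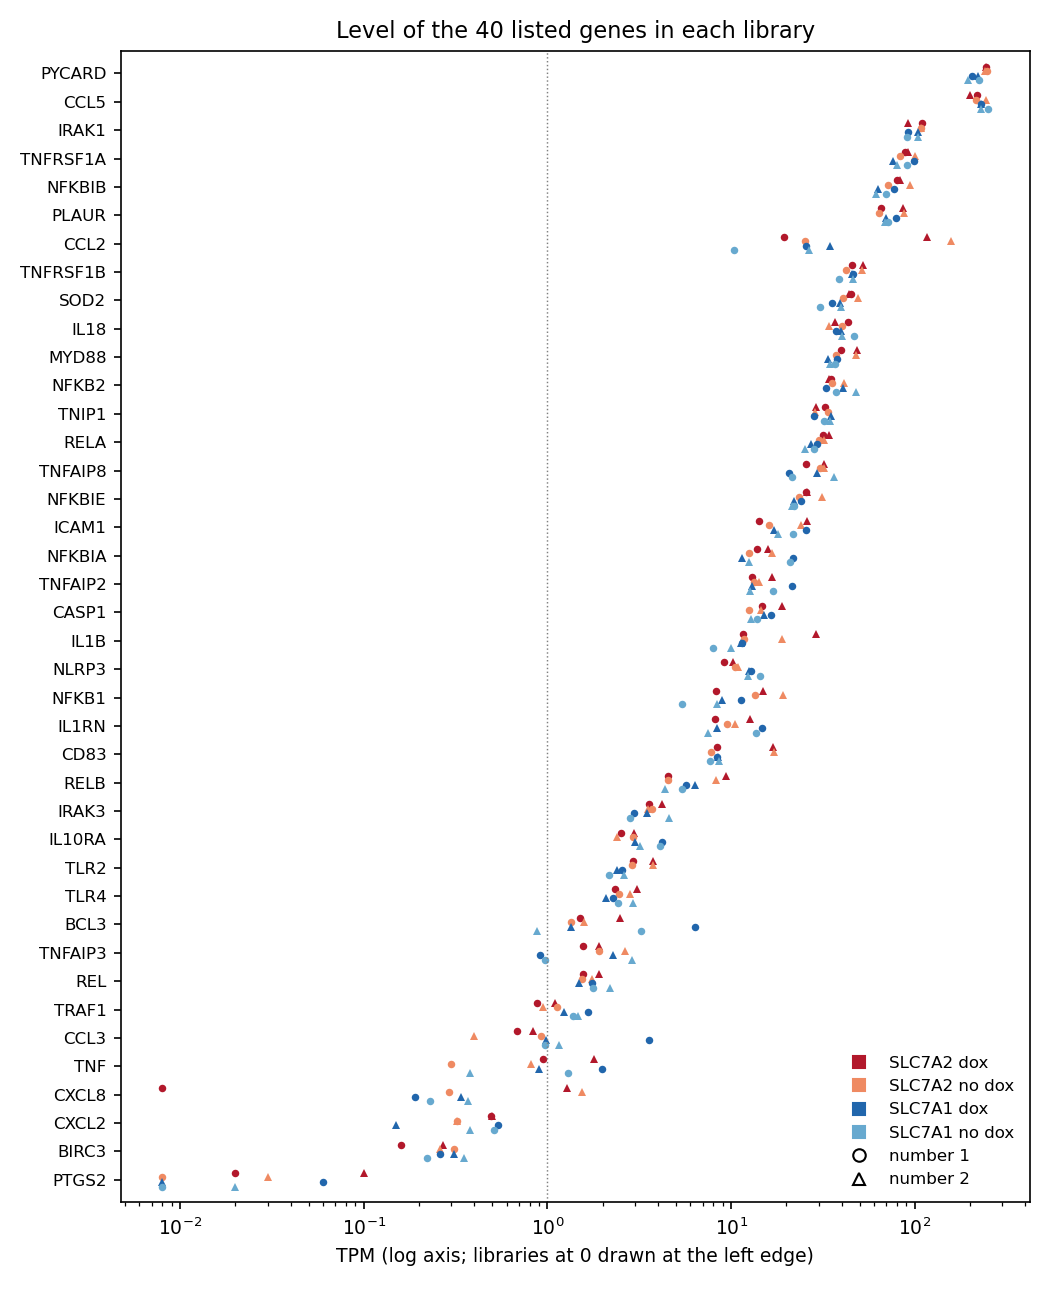
Level of the 40 genes listed in the files, in TPM on a log axis, with 1 point per library, colour for the group and shape for the replicate number. Genes are ordered by their mean over 8 libraries, the dotted line marks 1 TPM, and values of 0 are drawn at the left edge. PYCARD and CCL5 lie at the top with little spread, and CCL2 spans 10.3 to 157 TPM.

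All 5 NF-kB subunits were expressed, in an order in which several neighbours overlapped. NFKB2, the precursor of p52 and a subunit of the alternative pathway, averaged 38.0 ± 4.99 TPM (SD, 8 libraries). RELA, the p65 subunit that carries the transactivation domain of the classical dimer, averaged 29.8 ± 2.86 TPM. NFKB1, the precursor of p50, averaged 11.2 ± 4.44 TPM, RELB, the partner of p52, 6.07 ± 1.87 TPM, and REL 1.75 ± 0.232 TPM. The ranges of NFKB2 and RELA overlapped, as did those of NFKB1 and RELB, while every REL value lay below every value of the other 4.

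The 6 inhibitors and feedback proteins were expressed too. NFKBIB, which encodes IkB-beta, had 80.3 and 82.7 TPM in dox-treated SLC7A2 cells, 71.8 and 94.3 TPM in untreated SLC7A2 cells, 76.6 and 63.4 TPM in dox-treated SLC7A1 cells and 70.0 and 61.2 TPM in untreated SLC7A1 cells. It had the highest level of the 6, at 75.0 ± 10.8 TPM (SD, 8 libraries), beside 24.4 ± 3.14 TPM for NFKBIE (IkB-epsilon) and 15.7 ± 3.87 TPM for NFKBIA (IkB-alpha, itself a classical target of NF-kB). TNIP1, which binds the A20 protein, averaged 31.7 ± 2.69 TPM. TNFAIP3, which encodes A20, a ubiquitin-editing enzyme that ends the signal, averaged 1.88 ± 0.717 TPM. BCL3, an atypical IkB protein that works in the nucleus with p50 and p52 dimers, averaged 2.34 ± 1.79 TPM.

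Chemokine levels ran from among the highest of the 43 genes down to 0. CCL5, which attracts T cells and monocytes, had 219 and 200 TPM in dox-treated SLC7A2 cells, 214 and 244 TPM in untreated SLC7A2 cells, 230 and 228 TPM in dox-treated SLC7A1 cells and 252 and 229 TPM in untreated SLC7A1 cells. Dox and no-dox values overlapped in both lines, and the highest library was 1.26 times the lowest. CCL2, the monocyte attractant MCP-1, averaged 52.0 ± 54.0 TPM (SD, 8 libraries), a spread as large as its mean. CXCL8, the neutrophil attractant, had 0 and 25 counts in dox-treated SLC7A2 cells, 6 and 32 in untreated SLC7A2 cells, 4 and 8 in dox-treated SLC7A1 cells and 5 and 8 in untreated SLC7A1 cells. CXCL2 had 2 to 7 counts in a library, and CCL4 was listed in no file.

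CCL3 had 5 and 6 counts in dox-treated SLC7A2 cells, 7 and 3 in untreated SLC7A2 cells, 28 and 8 in dox-treated SLC7A1 cells and 8 and 9 in untreated SLC7A1 cells. One library, SLC7A1 with dox numbered 1, lay above the other 7, at 3.57 TPM against 0.400 to 1.15 TPM. The class of CCL3 as expressed, at a mean of 1.19 TPM, rests on that library. Near-identical copies exist for CCL3 and CCL4. The copies CCL3L3 and CCL4L2 had 0 to 4 and 0 to 2 counts, so how reads were divided between them and CCL3 or CCL4 is uncertain.

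The cytokines were present at modest levels. IL18, made as an inactive precursor, averaged 39.7 ± 3.91 TPM (SD, 8 libraries), IL1B 14.0 ± 6.78 TPM and IL1RN, the secreted antagonist of the interleukin 1 receptor, 10.6 ± 2.74 TPM. TNF averaged 1.05 ± 0.606 TPM on 6.42 to 39.9 counts, so its values carry much counting error. Its mean lay just above the limit of 1 TPM for an expressed gene. All 3 inflammasome genes were expressed. PYCARD, the ASC adaptor, had 244 and 245 TPM in dox-treated SLC7A2 cells, 248 and 240 TPM in untreated SLC7A2 cells, 205 and 220 TPM in dox-treated SLC7A1 cells and 223 and 195 TPM in untreated SLC7A1 cells. Its 4 SLC7A2-line values all lay above its 4 SLC7A1-line values in TPM, but not after TMM scaling of the counts. CASP1, the protease that matures IL1B and IL18, averaged 14.9 ± 2.10 TPM, and NLRP3, the sensor, 11.6 ± 1.69 TPM (SD, 8 libraries).

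Of the 8 receptors 6 were expressed and 2 silent. TNFRSF1A, the main TNF receptor, had 88.5 and 91.6 TPM in dox-treated SLC7A2 cells, 82.5 and 100.1 TPM in untreated SLC7A2 cells, 98.7 and 75.6 TPM in dox-treated SLC7A1 cells and 90.7 and 79.9 TPM in untreated SLC7A1 cells. PLAUR, the urokinase receptor, had 65.2 and 86.7 TPM in dox-treated SLC7A2 cells, 63.8 and 86.8 TPM in untreated SLC7A2 cells, 79.0 and 69.7 TPM in dox-treated SLC7A1 cells and 71.5 and 68.6 TPM in untreated SLC7A1 cells. TNFRSF1B, the second TNF receptor, had 45.3 and 52.0 TPM in dox-treated SLC7A2 cells, 42.4 and 51.3 TPM in untreated SLC7A2 cells, 46.2 and 45.6 TPM in dox-treated SLC7A1 cells and 38.6 and 45.9 TPM in untreated SLC7A1 cells. Dox and no-dox values overlapped in both lines for these 3 receptors, and each varied by less than 1.5 times over the 8 libraries. IL10RA, TLR2 and TLR4 averaged 3.16 ± 0.668, 2.88 ± 0.597 and 2.54 ± 0.348 TPM, and their ranges overlapped. TLR8, a receptor for RNA in endosomes, and CD40, the costimulatory receptor, were listed in no file. A count of 0 allows up to 3 counts, or 0.173 CPM in the shallowest library. CD14, the co-receptor of TLR4 for lipopolysaccharide, averaged 0.106 TPM.

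Among adaptors and kinases IRAK1, a kinase of the MYD88 pathway, led, with 109 and 92.2 TPM in dox-treated SLC7A2 cells, 108 and 108 TPM in untreated SLC7A2 cells, 92.0 and 104 TPM in dox-treated SLC7A1 cells and 90.7 and 105 TPM in untreated SLC7A1 cells. Its dox and no-dox values overlapped in both lines. The MYD88 adaptor itself averaged 39.4 ± 5.61 TPM (SD, 8 libraries). IRAK3, an inhibitory relative of IRAK1, averaged 3.61 ± 0.587 TPM, TRAF1, a TNF receptor adaptor, 1.22 ± 0.264 TPM and BIRC3, the ubiquitin ligase cIAP2, 0.268 ± 0.0590 TPM. The other induced genes were SOD2 (mitochondrial superoxide dismutase, 40.4 ± 5.87 TPM), TNFAIP8 (28.5 ± 5.46 TPM), ICAM1 (an adhesion molecule, 20.3 ± 4.51 TPM), TNFAIP2 (15.1 ± 3.03 TPM), CD83 (a surface protein of activated antigen-presenting cells, 10.4 ± 4.08 TPM) and PTGS2 (cyclooxygenase 2). PTGS2 had 1 and 6 counts in dox-treated SLC7A2 cells, 0 and 2 in untreated SLC7A2 cells, 4 and 0 in dox-treated SLC7A1 cells and 0 and 1 in untreated SLC7A1 cells. Of the 36 expressed genes 14 varied by less than 1.5 times between the highest and lowest library, and 9 varied by more than 2 times, with CCL2 at 15.1 times.

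Of 74 further genes of the pathway 44 were expressed, 18 low and 12 silent. The 4 highest were LTBR (a receptor of the alternative pathway, 64.3 TPM), GSDMD (the pore-forming gasdermin D, 61.4 TPM), TNFSF13B (the cytokine BAFF, 51.4 TPM) and CD44 (an adhesion receptor, 48.9 TPM). IL6 averaged 0.0320 TPM on at most 2 counts, and CXCL1 and CASP5 were listed in no file.

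With dox, none of the genes passed the test in either line. For testing, 37 of the 43 passed a filter on low counts and 6 did not: CCL3, CCL4, CXCL2, PTGS2, TLR8 and CD40. In the SLC7A2 line edgeR's quasi-likelihood test called 0 of 37 genes at an adjusted p under 0.05, beside 0.0% of all 17503 entries tested. For dox in the SLC7A1 line it also called 0 of 37, beside 0.0%, and the difference between the dox effects of the lines gave 0 of 37, beside 0.0%. Dox across both lines, with 4 libraries in each arm, gave 0 of 37, beside 0.0%. The induced constructs were not called by edgeR either. SLC7A2_Flag had 264 and 4947 CPM with dox in its line, against 0.563 and 9.65 CPM without. SLC7A1_endo_Flag had 844.5 and 366.5 CPM with dox in its line, against 0.264 and 0 CPM without. The test thus missed very large changes, and 0 calls do not show that the genes were unchanged. At an unadjusted p under 0.05 there were 0, 0, 1 and 0 of the genes in these 4 comparisons, where all entries gave 1.28%, 1.27%, 1.27% and 1.49%. DESeq2 called 0 of the genes in each, and 9, 9, 18 and 2 entries in all (0.0398%, 0.0398%, 0.0863% and 0.00884%).

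The median log2 fold change of the 37 genes was -0.06 in the SLC7A2 line and 0.02 in the SLC7A1 line, beside 0.01 and 0.00 over all entries. Of the 37, 11 lay above 0 and 26 below in the SLC7A2 line, and 22 above and 15 below in the SLC7A1 line. In each line the sign of 26 of the 37 values changed on the omission of at least 1 library. After TMM scaling of the counts, no gene had 4 dox values that were all above or all below its 4 values without dox, beside 0.891% of all entries. In TPM alone the 4 dox values of CASP1 lay above its 4 values without dox, by little. Its lowest dox value was 14.7 TPM, in the SLC7A2-line library numbered 1. Its highest value without dox was 14.6 TPM, in the SLC7A2-line library numbered 2. The labels do not say that same-numbered libraries belong together. Set side by side by number within a line, 6 of 37 genes lay on the same side with dox in all 4 such pairs, beside 14.8% of all entries. TNF, BCL3 and CASP1 were higher with dox in each pair, and NFKB2, TNFAIP3 and TNFAIP8 lower.

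**Figure D2:**
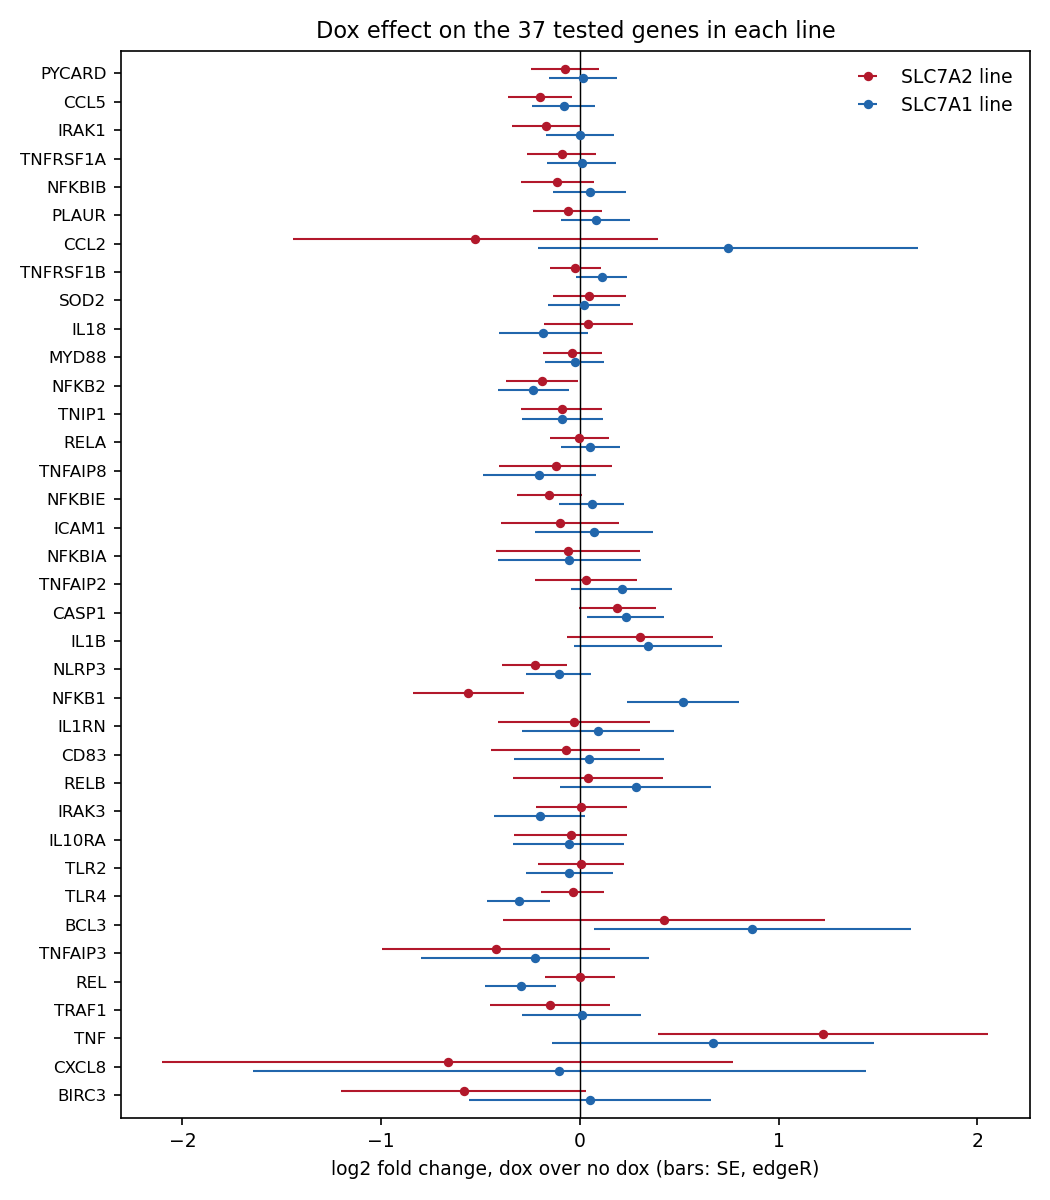
Dox effect on each of the 37 tested genes as the log2 fold change of dox over no dox in the SLC7A2 line (red) and the SLC7A1 line (blue), with bars for the SE from edgeR. Most values lie near 0, NFKB1 has values of opposite sign at -0.56 and 0.52, and the scarce or uneven TNF, BCL3, CCL2 and CXCL8 have the widest bars.

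NFKB1 was the gene at an unadjusted p under 0.05 in the difference between lines. It lies on chromosome 4, 102501359 to 102617302 in GRCh38.p14. Its level was 8.22 and 14.9 TPM in dox-treated SLC7A2 cells, against 13.4 and 19.2 TPM in that line without dox. It had 11.4 and 8.92 TPM in dox-treated SLC7A1 cells, against 5.43 and 8.38 TPM in untreated ones. With dox it was thus lower in both same-numbered pairs of the SLC7A2 line and higher in both pairs of the SLC7A1 line, by little in the pair numbered 2. The log2 fold change was -0.56 ± 0.28 in the SLC7A2 line and 0.52 ± 0.28 in the SLC7A1 line (SE, edgeR). Their difference was -1.08 ± 0.40, with an unadjusted edgeR p of 0.0283 and an adjusted p of 1.00, so it did not pass. Over the omission of each library in turn this difference stayed between -1.46 and -0.77.

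TNF, a central inflammatory cytokine, had the highest dox value across both lines. It had 0.940 and 1.79 TPM in dox-treated SLC7A2 cells, against 0.300 and 0.810 TPM without dox. Dox-treated SLC7A1 cells had 1.98 and 0.900 TPM, against 1.29 and 0.380 TPM in untreated SLC7A1 cells. Each dox library lay above its same-numbered partner, while the 4 dox values as a set overlapped the 4 values without dox. The log2 fold change across both lines was 0.94 ± 0.55 (SE), with an edgeR adjusted p of 1.00 and an unadjusted p of 0.123.

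BCL3 had 1.51 and 2.47 TPM in dox-treated SLC7A2 cells, against 1.35 and 1.59 TPM without dox, and 6.37 and 1.35 TPM in dox-treated SLC7A1 cells, against 3.21 and 0.880 TPM without dox. Both SLC7A1-line libraries numbered 1 were high, with and without dox. Its dox effect was 0.42 ± 0.81 in the SLC7A2 line and 0.87 ± 0.80 in the SLC7A1 line (log2, SE), and neither passed in edgeR (adjusted p of 1.00 in both). The SLC7A1-line value came to -0.55 without that line's dox library numbered 1. CCL2 had a dox effect of -0.53 ± 0.92 in the SLC7A2 line and 0.75 ± 0.96 in the SLC7A1 line (log2, SE), neither past edgeR's test (adjusted p of 1.00 in both). In the SLC7A2 line it was 1.24 without the no-dox library numbered 2 and 0.23 without the dox library numbered 1. TNFAIP3 had 1.56 and 1.91 TPM in dox-treated SLC7A2 cells, against 1.90 and 2.63 TPM in untreated ones, and 0.910 and 2.28 TPM in dox-treated SLC7A1 cells, against 0.970 and 2.88 TPM in untreated ones. IL1B had 11.6 and 28.9 TPM in dox-treated SLC7A2 cells, against 11.7 and 18.9 TPM in untreated ones, and 11.5 and 11.4 TPM in dox-treated SLC7A1 cells, against 8.01 and 9.92 TPM in untreated ones. As sets of 4 the dox and no-dox values of both genes overlapped, although in the SLC7A1 line both IL1B values with dox lay above both without. TNFAIP3 and IL1B had -0.32 ± 0.38 and 0.32 ± 0.24 across both lines (log2, SE), and neither passed (edgeR adjusted p of 1.00 in both).

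Between the lines, edgeR called 0 of 37 genes, beside 0.0% of all entries, with 7 of 37 at an unadjusted p under 0.05, beside 12.8%. DESeq2 called 1, NLRP3, of the 38 genes that it adjusted, beside 1.99% of all entries. NLRP3 lies on chromosome 1, 247416077 to 247448817 in GRCh38.p14. It had 9.16 and 10.2 TPM in dox-treated SLC7A2 cells and 10.5 and 10.9 TPM without dox, against 12.8 and 12.5 TPM in dox-treated SLC7A1 cells and 14.4 and 12.3 TPM without dox. All 4 values of the SLC7A2 line lay below the 4 of the SLC7A1 line. The log2 fold change, SLC7A2 over SLC7A1 line, was -0.49 ± 0.10 (SE) in edgeR, with an adjusted p of 0.315 and an unadjusted p of 0.00140. In DESeq2 it was -0.48, with an adjusted p of 0.0114. Over the omission of each library in turn the edgeR value stayed between -0.57 and -0.43.

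After TMM scaling of the counts, groups of 4 that did not overlap between lines were seen for 4 of 37 genes, beside 9.46% of all entries. Besides NLRP3 these were TRAF1 and IL10RA, lower in the SLC7A2 line, and TLR2, higher there. In TPM alone the lines also did not overlap for PYCARD, RELA, SOD2 and IL1B, higher in the SLC7A2 line. The same held for CCL3, lower there, which was not tested. TRAF1 had 0.880 and 1.10 TPM in dox-treated SLC7A2 cells and 1.13 and 0.950 TPM without dox, against 1.66 and 1.23 TPM in dox-treated SLC7A1 cells and 1.37 and 1.47 TPM without dox. Its log2 value was -0.64 ± 0.19 (SE), with an edgeR adjusted p of 0.321. IL10RA, the ligand-binding chain of the interleukin 10 receptor, had -0.56 ± 0.18 (adjusted p 0.331) and TLR2, which senses bacterial lipopeptides, 0.32 ± 0.14 (adjusted p 0.384). None of these 3 passed, and DESeq2 gave adjusted p values of 0.187, 0.196 and 0.356.

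**Figure D3:**
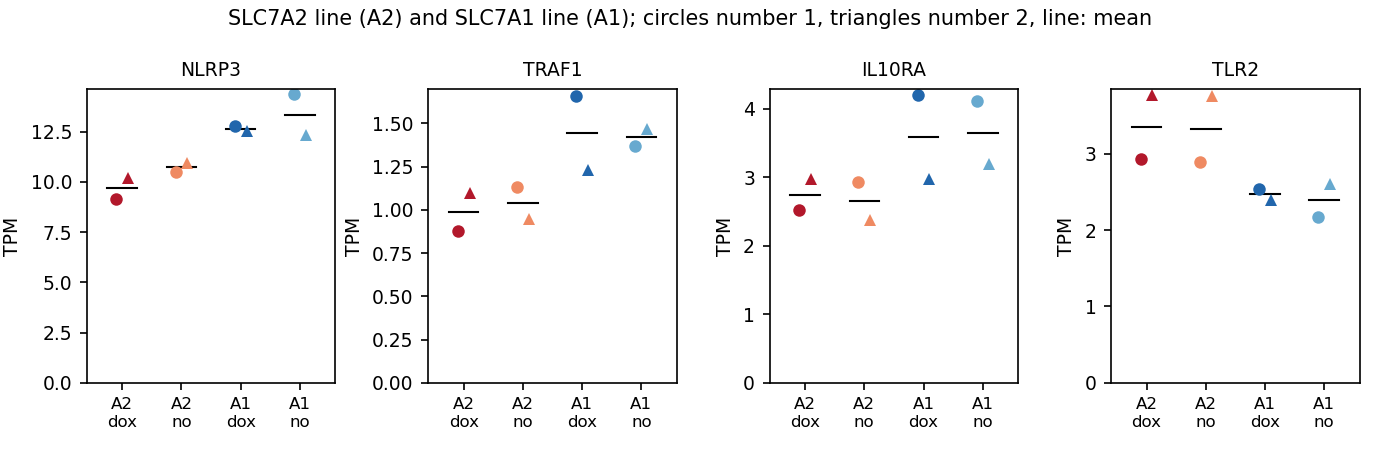
TPM of NLRP3, TRAF1, IL10RA and TLR2 in each library of the SLC7A2 line (A2) and the SLC7A1 line (A1), with dox and without (no), circles for number 1, triangles for number 2 and a line at the mean of 2. The SLC7A2-line values lie below the SLC7A1-line values for the first 3 genes and above them for TLR2, with NLRP3 at 9.16 to 10.9 against 12.3 to 14.4 TPM.

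CCL2, BCL3 and IL1B had larger fold changes between lines than these, on uneven libraries. CCL2 had 19.3 and 117 TPM in dox-treated SLC7A2 cells and 25.4 and 157 TPM without dox, against 25.7 and 34.5 TPM in dox-treated SLC7A1 cells and 10.3 and 26.4 TPM without dox. The 2 SLC7A2-line libraries numbered 2 were high, and those numbered 1 lay within the range of the SLC7A1 line. The log2 fold change was 1.56 ± 0.68 (SE), with an edgeR adjusted p of 0.389. Without both SLC7A2-line libraries numbered 2 it was -0.11. BCL3 had -0.85 ± 0.54 (edgeR adjusted p 0.516) and IL1B 0.64 ± 0.24 (edgeR adjusted p 0.365).

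The replicate number separated more of these genes than dox or line did in edgeR. This comparison, number 2 over number 1 within a line with dox as a term, was added after the values were seen. What the number stands for is not given in the labels. In the SLC7A2 line 4 of 37 genes passed edgeR's test, all higher in the libraries numbered 2, beside 10.9% of all entries called and 4.14% called as higher. For the SLC7A1 line 5 of 37 passed, 2 higher and 3 lower, beside 1.77% of all entries. The share in the SLC7A2 line was therefore near that of all entries, and the genes named from here on were chosen after their values were seen.

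In the SLC7A2 line CCL2 had 117 TPM with dox and 157 TPM without dox in libraries numbered 2, against 19.3 TPM with dox and 25.4 TPM without dox in those numbered 1. This was 5.59-fold, or 2.48 ± 0.40 on the log2 scale (SE), with an edgeR adjusted p of 0.0229. CD83 had 16.8 TPM with dox and 17.2 TPM without dox in libraries numbered 2, against 8.39 TPM with dox and 7.73 TPM without dox in those numbered 1 (1.91-fold, edgeR adjusted p 0.0145). Both genes are induced when myeloid cells are activated. IL1B had 28.9 and 18.9 TPM in libraries numbered 2, with and without dox, against 11.6 and 11.7 TPM in those numbered 1 (1.80-fold, edgeR adjusted p 0.0288). ICAM1 had 25.8 and 24.1 TPM in libraries numbered 2, against 14.2 and 16.1 TPM in those numbered 1 (1.48-fold, edgeR adjusted p 0.0266). For all 4 genes both libraries numbered 2 lay above both numbered 1. RELB had 0.82 ± 0.20 and CXCL8 3.26 ± 1.09 (log2, SE), and neither passed (edgeR adjusted p 0.0534 and 0.108).

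**Figure D4:**
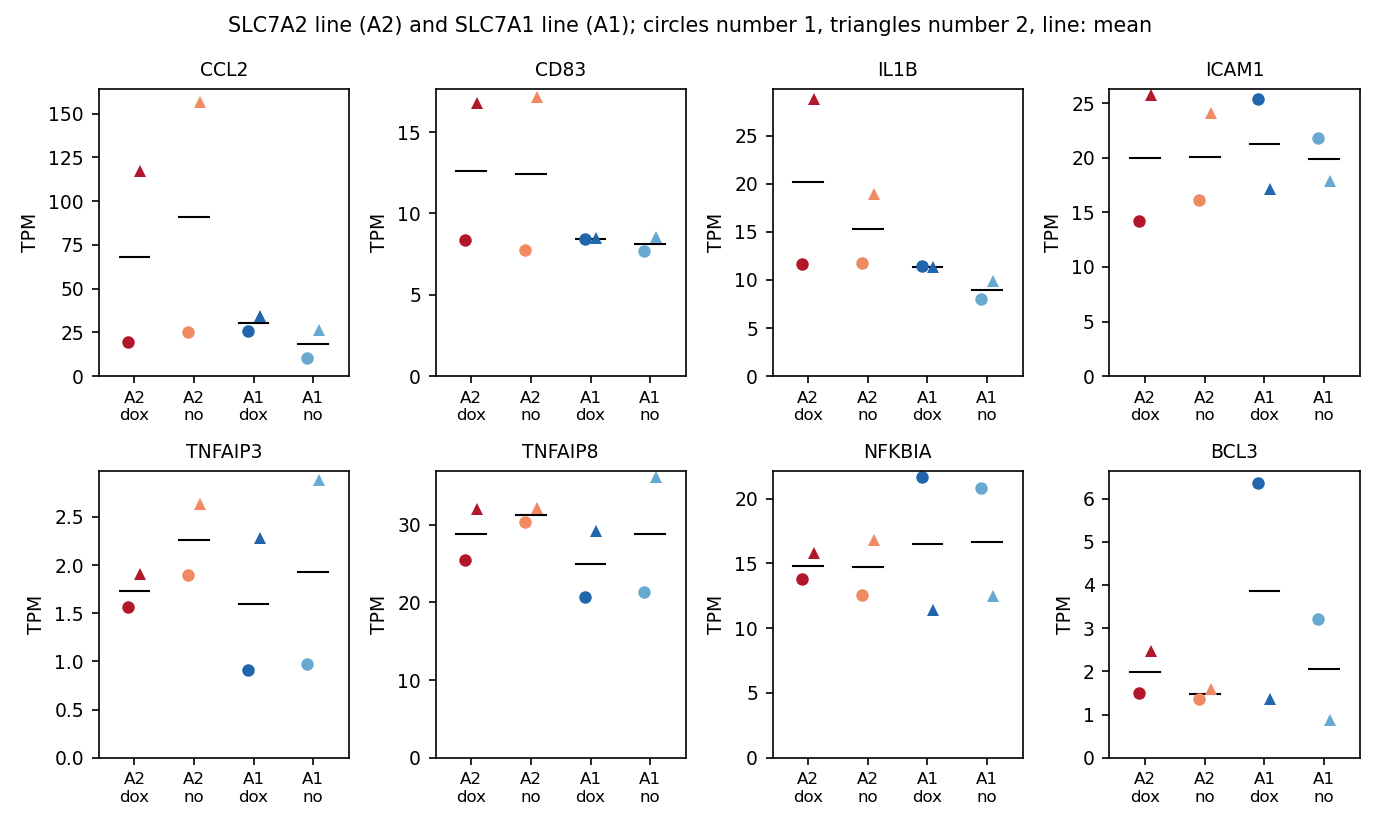
TPM in each library for the genes that split by replicate number, with circles for number 1, triangles for number 2 and a line at the mean of 2, in the SLC7A2 line (A2) and the SLC7A1 line (A1) with dox and without (no). The top row separates the numbers in the SLC7A2 line, with CCL2 at 117 and 157 against 19.3 and 25.4 TPM, and the bottom row separates them in the SLC7A1 line, with NFKBIA at 11.4 and 12.5 against 21.6 and 20.9 TPM.

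Some other values moved with the number in this line, and some did not. The SLC7A2_Flag construct had 4947 CPM in the dox library numbered 2, against 264 CPM in that numbered 1, and 9.65 CPM in the no-dox library numbered 2, against 0.563 CPM in that numbered 1. ELANE, the neutrophil elastase gene of immature myeloid cells, had 284 CPM with dox and 401 CPM without dox in libraries numbered 2, against 882 and 908 CPM in those numbered 1. Summed monocytic and myeloid markers came to 1671 and 2028 CPM in libraries numbered 2, against 2552 and 2586 CPM in those numbered 1, and ELANE made up most of this gap. CD33, a myeloid surface marker, had 71.7 and 72.7 CPM in libraries numbered 2, against 81.7 and 75.0 CPM in those numbered 1. From the same list, CD4 had 348 and 329 CPM in libraries numbered 2, against 466 and 453 CPM in those numbered 1. SPI1 had 122 and 141 CPM, against 164 and 165 CPM. MPO did not split by number, at 0.759 and 1.09 CPM against 0.693 and 1.18 CPM. ITGAM, an integrin of mature myeloid cells, had 10.8 and 4.36 CPM in libraries numbered 2, against 3.99 and 3.94 CPM in those numbered 1. Only the dox library numbered 2 thus stood out in this line. The highest ITGAM value of all was in the SLC7A1-line dox library numbered 1, at 11.6 CPM. The 6 fibroblast markers summed to 61.3 CPM in the no-dox library numbered 2, against 3.30 to 9.28 CPM in the other 7, with COL1A1 at 25.0 CPM against 1.41 to 4.84 CPM. In the dox library numbered 2, which had 117 TPM of CCL2 and 16.8 TPM of CD83, the fibroblast sum was 5.80 CPM. The part of the construct level and of the markers in the result was not tested. In bulk RNA fewer cells of a type and less RNA per cell cannot be told apart.

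Another set of genes passed edgeR's test in the SLC7A1 line. TNFAIP3, whose promoter windows hold the motif on the opposite strand, had 2.28 TPM with dox and 2.88 TPM without dox in libraries numbered 2, against 0.910 and 0.970 TPM in those numbered 1 (2.71-fold, edgeR adjusted p 0.0301). TNFAIP8, a regulator of cell death, had 29.3 and 36.2 TPM in libraries numbered 2, against 20.8 and 21.4 TPM in those numbered 1 (1.62-fold, edgeR adjusted p 0.0263). Both were higher in the libraries numbered 2. NFKBIA had 11.4 and 12.5 TPM in libraries numbered 2, against 21.6 and 20.9 TPM in those numbered 1, a log2 value of -0.87 ± 0.12 (SE, edgeR adjusted p 0.0304). BCL3 had 1.35 and 0.880 TPM in libraries numbered 2, against 6.37 and 3.21 TPM in those numbered 1, a log2 value of -2.04 ± 0.29 (SE, edgeR adjusted p 0.0347). TNFAIP2, induced by TNF in endothelial and myeloid cells, had -0.60 ± 0.09 (log2, SE, edgeR adjusted p 0.0437). Thus the feedback genes did not move together: the gene for A20 was higher and that for IkB-alpha lower in the same libraries.

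The number effect was also compared between lines. The difference, SLC7A2 line minus SLC7A1 line, passed edgeR's test for 4 of 37 genes, beside 2.86% of all entries: BCL3 at 2.42 ± 0.41, NFKBIA at 1.03 ± 0.17, ICAM1 at 1.02 ± 0.14 and CD83 at 0.88 ± 0.16 (log2, SE), with adjusted p values of 0.0453, 0.0422, 0.0330 and 0.0481. ICAM1 was higher in number 2 of the SLC7A2 line at 0.57 ± 0.10, while in the SLC7A1 line it had -0.45 ± 0.10 (log2, SE), which did not pass there (edgeR adjusted p 0.0767). DESeq2 called ICAM1 in both lines, in these opposite directions. CCL2 had 2.48 in the SLC7A2 line and 0.74 in the SLC7A1 line on the log2 scale, and this difference did not pass (edgeR adjusted p 0.153).

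**Figure D5:**
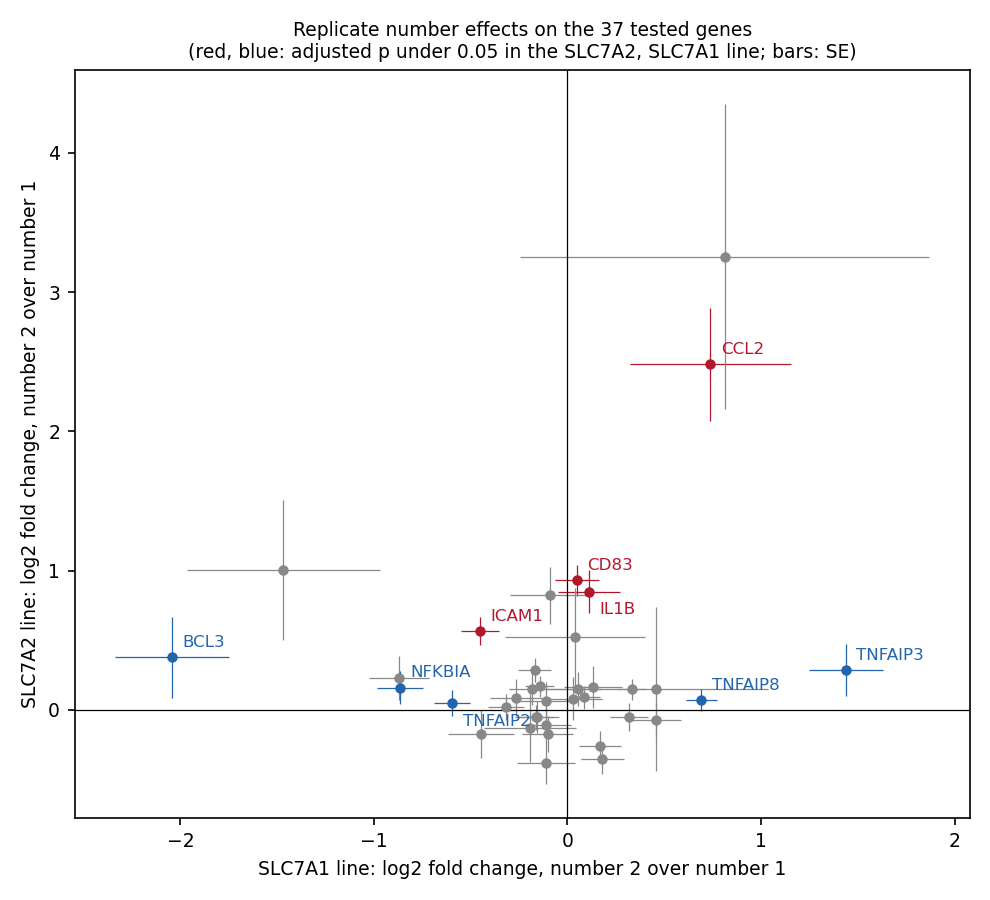
Log2 fold change of number 2 over number 1 for the 37 tested genes, in the SLC7A1 line on the x axis and in the SLC7A2 line on the y axis, with bars for the SE. Genes with an edgeR adjusted p under 0.05 are named, red for the SLC7A2 line and blue for the SLC7A1 line, and no gene passed edgeR's test in both lines.

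These calls rest on 2 libraries for each number, and single omissions ended them. In the SLC7A2 line the count was 0 without the dox library numbered 1 or 2 or the no-dox library numbered 1. It was 2 without that line's no-dox library numbered 2 or either SLC7A1-line library numbered 1, and 5 without either SLC7A1-line library numbered 2. Within the SLC7A1 line it was 0 without any of that line's 4 libraries or either SLC7A2-line library numbered 1, and 3 without either SLC7A2-line library numbered 2. For the difference it was 0 without any one of the 8. The signs held: CCL2 stayed between 1.94 and 2.90 and CD83 between 0.83 and 1.03 in the SLC7A2 line, and BCL3 between -2.23 and -1.83 and TNFAIP3 between 1.32 and 1.56 in the SLC7A1 line (log2). DESeq2 adjusted 34 of the genes in each of these 3 comparisons. It called 7 in the SLC7A2 line, beside 24.8% of all entries, 11 in the SLC7A1 line, beside 15.2%, and 11 for the difference, beside 14.3%.

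The 74 further pathway genes, of which 52 were tested, gave 0 calls by edgeR for dox in either line, for the difference, for dox across both lines and between lines. By number, 5 of 52 passed in the SLC7A2 line, beside 10.9% of all entries, so their share was not above that of all entries. CHUK (the IKK-alpha kinase, 0.70 ± 0.16), TBK1 (a related kinase that acts downstream of STING, 0.70 ± 0.14) and IKBKE (0.32 ± 0.07) were higher in number 2, and GSDMD (-0.73 ± 0.12) and TAB1 (-0.71 ± 0.08) lower (log2, SE). In the SLC7A1 line 2 of 52 passed, beside 1.77% of all entries: NFKBID (a nuclear IkB protein, -1.52 ± 0.12) and ZC3H12A (the RNase regnase-1, -0.85 ± 0.14), both lower in number 2. All 7 had edgeR adjusted p values from 0.0135 to 0.0477. Among the members called in the SLC7A1 line, NFKBIA, BCL3 and TNFAIP2 were also lower in number 2, and TNFAIP3 and TNFAIP8 higher.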

How the data were processed

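The data are 8 text files, each with 1 library. Per the file headers they hold RSEM's expected count for every gene, TPM, FPKM and gene lengths, all made by the authors. FPKM and lengths entered no test. The submitters' processing notes list hg38 and, with neither role nor order, DESeq2 1.4.5, RSEM 1.3.1, Bowtie2 2.3.4.3 and HISAT. Strand use in counting: not given in the sources used here. Values of genes with overlapping or antisense neighbours are therefore uncertain. Genes that a file does not list counted as 0. Symbols, coordinates and promoter sequences came from RefSeq tables of GRCh38.p14.

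Rounded expected counts were filtered with filterByExpr (minimum count 10, total 15), which left 17503 of 22653 entries, scaled by TMM and tested over all entries with edgeR 4.0.16 (R 4.3.3). P-values were adjusted by Benjamini-Hochberg, with a threshold of 0.05. The line and pooled dox tests used an additive fit, the other dox tests 4 group means. An SE is the size of the log2 fold change divided by the root of its F statistic. DESeq2 1.42.0 and limma 3.58.1 gave alternatives, and the scripts were tested on simulated data.

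The labels give replicate numbers but no pairing, so the fits had no block. Replicates of a group differed beyond sampling noise (chi-square per gene from 20.66 to 45.64). Genes given in every library were those called by any tool in the 5 planned comparisons, the 8 highest by mean TPM and, in each comparison, the 4 with the largest change among those averaging at least 1 TPM. The members and lists were chosen with earlier results of these data known, and the 3 number comparisons were added after the values were seen.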

Additional observations from a re-analysis of the deposited data

Results flagged for a closer look

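The effect of the replicate number differed between the lines in 4 genes, by the edgeR test of the difference itself, which was added after the values were seen. On the log2 scale, SLC7A2 line minus SLC7A1 line, the difference was 2.42 for BCL3, 1.03 for NFKBIA, 1.02 for ICAM1 and 0.88 for CD83. The SLC7A2-line and SLC7A1-line effects behind these were 0.38 and -2.04 for BCL3, 0.16 and -0.87 for NFKBIA, 0.57 and -0.45 for ICAM1, and 0.93 and 0.05 for CD83. Each of the 4 missed the threshold without any one of the 8 libraries, with no change of sign. Groups of 2 libraries were too small to test for outlying samples.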

How the results depend on the processing

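Every setting run gave 0 member calls for dox. The silent genes, 3 here, were 5 with a floor of 10 expected counts and 4 when called by a mean under 0.1 TPM. Counts over all entries for dox in the SLC7A2 line, dox in the SLC7A1 line, their difference and dox across both lines, 0 each, became 9, 9, 18 and 2 with DESeq2. With the replicate block, which sets same-numbered libraries of a line against each other, they were 1, 2, 0 and 3, and in DESeq2 with that block 13, 24, 14 and 104. With no filter on low counts dox in the SLC7A1 line and dox across both lines gave 2 each. With limma on log2(TPM + 1) the first 3 gave 1, 2 and 3, and with log2(TPM + 0.1) dox in the SLC7A1 line gave 3 and the difference 2. Without both SLC7A2-line libraries numbered 2 dox across both lines gave 1. Under the block 2, 4, 2 and 6 members lay at an unadjusted p under 0.05 in these 4 comparisons, beside 3.54%, 4.25%, 2.97% and 5.83% of all entries, and TNF across both lines had 1.07 ± 0.36 (log2, SE, edgeR adjusted p 0.835). The labels give only a shared number, and across genes the deviations of same-numbered samples had r = 0.312 in the SLC7A2 line, 0.197 in the SLC7A1 line and -0.024 to 0.15 across lines.

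Between lines the entries called, 0 in edgeR, were 345 with DESeq2, 3 with no filter, 1 without both SLC7A2-line libraries numbered 2, 256 with the replicate block and 1505 in DESeq2 with it. For this comparison the block was 1 term for the number, shared by both lines. The members called were 1 in DESeq2 and 2 with the block (NLRP3 and CCL2), and edgeR with the block called none, with NLRP3 at an adjusted p of 0.0505. CCL2 reversed to -0.11 without both SLC7A2-line libraries numbered 2.

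By number, entries called in the SLC7A2 line (1915) were 3648 with DESeq2 and 3126 and 3032 with limma (pseudocounts 1 and 0.1), and members (4) were 7 in each of these and with Entrez genes only. In the SLC7A1 line entries (310) were 2102, 801 and 766, and 834 with Entrez genes only, and members (5) were 11 with DESeq2. For the difference entries (500) were 1982, 1006 and 967, and 906 with Entrez genes only, and members (4) were 11, 10 and 9, 8 with Entrez genes only and 2 with no filter.

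Omitting each library in turn gave 0 to 1 entries for dox in the SLC7A2 line and between lines, 0 to 1541 entries and 0 to 5 members for number in the SLC7A2 line, 1 to 337 and 0 to 3 in the SLC7A1 line, and 1 to 26 and 0 for the difference. Of the 37 tested members 26, 26, 30 and 25 changed sign on at least 1 omission in the 4 dox comparisons, in the order above. Among the named values were BCL3 from -0.55 to 2.15 in the SLC7A1 line and -1.73 to 0.97 for the difference, CCL2 from -2.18 to 1.24 in the SLC7A2 line and -2.92 to 0.49 for the difference, TNF from -0.71 to 1.41 for the difference, and TNFAIP3 from -0.67 to 0.0036 across both lines. Depth limits TNF, CXCL8, CCL3, BIRC3, CXCL2 and PTGS2, with at most 39.9 counts in a library. The causes were not tested.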
